A study of Homo sapiens with 2 samples.

Results

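The regions described here are 34213 OTX2 peaks that lie deep inside protein-coding genes. They were chosen from the deposited peak list by position alone. The summit of each had to lie on chromosomes 1 to 22, in intron 2 or a later intron of the canonical transcript of a protein-coding gene. It could not lie in an intron 1 or an exon of any canonical protein-coding transcript, and it had to be more than 5 kb from the transcription start site (TSS) of every protein-coding transcript. They made up 25.5% (Wilson 95% interval 25.3 to 25.8%) of the 133985 peaks on these chromosomes, out of 137412 peaks in the whole list. Of the other peaks on chromosomes 1 to 22, 62383 were intergenic, 24332 lay within 5 kb of a TSS, 11537 lay in a first intron and 1520 in an exon.

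The peaks came from D283, an established medulloblastoma cell line grown as tumorspheres without attachment in medium with EGF and bFGF. The cells were untreated controls that express OTX2, and 1 OTX2 ChIP library was compared with 1 input library of the same line. Since each library was made once, the values carry counting error only, with no spread between replicates, and no condition was compared with another. After removal of duplicates the ChIP library held 61259377 fragments and the input library 22521186.

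OTX2 is a homeodomain transcription factor that patterns the forebrain and midbrain and is highly expressed in most Group 3 and Group 4 medulloblastomas. Its homeodomain belongs to the bicoid class, which recognises TAATCC and the related TAATCT. Introns hold many enhancers, which can act on their host gene or on another gene at a distance, so an intronic peak does not by itself name a target gene.

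Sequence in the build of the peaks (GRCh38) was at hand only around RefSeq gene starts, as windows from 250 bases before to 50 bases after the start. The summits of 39 later-intron peaks fell in such a window, 34 at long noncoding RNA (lncRNA) genes and 5 at RefSeq starts of protein-coding genes. Printed below are the 3 with the highest fold enrichment that hold a motif near the summit, followed by the window with the highest fold enrichment that holds none. They are RefSeq sequences on the strand of the named noncoding RNA, and capitals mark TAATCC or TAATCT on either strand.
RBM5-AS1, chr3:50100939-50101238, minus strand: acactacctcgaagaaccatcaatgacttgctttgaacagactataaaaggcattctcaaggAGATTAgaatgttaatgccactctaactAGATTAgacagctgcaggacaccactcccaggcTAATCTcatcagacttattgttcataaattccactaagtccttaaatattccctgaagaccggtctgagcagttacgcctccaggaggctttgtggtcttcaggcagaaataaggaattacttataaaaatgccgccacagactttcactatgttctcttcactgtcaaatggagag
LOC124900953, chr5:31854839-31855138, plus strand: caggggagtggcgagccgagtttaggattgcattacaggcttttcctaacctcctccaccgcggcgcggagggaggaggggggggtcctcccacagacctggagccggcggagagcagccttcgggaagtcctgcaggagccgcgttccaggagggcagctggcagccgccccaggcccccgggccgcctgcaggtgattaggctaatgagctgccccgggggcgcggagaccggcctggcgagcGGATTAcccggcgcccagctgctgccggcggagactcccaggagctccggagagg
SLIT3-AS1, chr5:169012977-169013276, plus strand: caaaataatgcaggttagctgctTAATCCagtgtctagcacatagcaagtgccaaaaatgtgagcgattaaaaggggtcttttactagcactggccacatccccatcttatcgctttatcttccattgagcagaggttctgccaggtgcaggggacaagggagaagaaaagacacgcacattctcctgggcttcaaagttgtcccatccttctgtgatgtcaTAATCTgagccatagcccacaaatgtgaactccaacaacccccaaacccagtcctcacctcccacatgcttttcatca
LOC124902424, chr10:50561250-50561549, plus strand: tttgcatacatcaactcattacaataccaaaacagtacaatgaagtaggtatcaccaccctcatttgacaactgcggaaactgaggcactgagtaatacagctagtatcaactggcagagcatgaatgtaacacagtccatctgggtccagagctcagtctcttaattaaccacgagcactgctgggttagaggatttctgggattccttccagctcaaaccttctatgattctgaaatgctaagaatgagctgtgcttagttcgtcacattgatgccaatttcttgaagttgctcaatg

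The RBM5-AS1 window lies in intron 6 of RBM5, which encodes an RNA-binding splicing regulator. Its peak had a fold enrichment of 47.2 with 363 fragments at the summit (exact Poisson 95% interval 327 to 402), and its 3 motifs lay 9, 19 and 47 bp from the summit. The LOC124900953 window lies in intron 2 of PDZD2, with a fold enrichment of 24.7, 174 fragments (149 to 202) and its motif 5 bp from the summit. The SLIT3-AS1 window lies in intron 4 of SLIT3, a secreted ligand of the ROBO receptors, with a fold enrichment of 22.8 and 158 fragments (134 to 185). Of its motifs, 1 lay 4 bp and the other 203 bp from the summit. The LOC124902424 peak in intron 2 of SGMS1, which encodes a sphingomyelin synthase, reached a fold enrichment of 19.5 without either motif in the window. Its summit lay at position 50561548, at the edge of the window, so the bases on its far side were not searched.

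Over the 39 windows, 18 (46.2%, Wilson 95% interval 31.6 to 61.4%) held TAATCC or TAATCT on either strand. The same letters were found in 18.7% (16.7 to 20.8%) of the 1396 RefSeq windows that lie in later-intron territory and hold no summit, in 16.5% of 12546 lncRNA windows and in 12.8% of all 33558 windows. TAATCC alone was found in 9 of the 39 (23.1%, 12.6 to 38.3%), in 8.60% (7.24 to 10.2%) of the later-intron windows without a summit and in 6.37% of all windows. By both measures the interval of the windows with a summit did not overlap that of later-intron windows without one. The median GC content was 45.7% in both. The motifs lay close to the summits. Of 24 motifs in the 39 windows, 19 (79.2%) lay within 50 bp of the summit, whereas 31.6% of the window bases did. At least 1 motif lay within 50 bp of the summit in 41.0% of the windows, and TAATCC in 17.9%. In the 18 windows with a motif, the median distance from the summit to the nearest one was 5 bp. A motif was present in 7 of 12 windows whose peak had a fold enrichment of at least 10 (58.3%, 32.0 to 80.7%) and in 11 of 27 with a lower one (40.7%, 24.5 to 59.3%), and these intervals overlap. The 39 peaks were selected by an annotated gene start and are not a sample of all later-intron peaks. A motif match is a description and no measurement of contact.

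Later-intron peaks wholly contained 7 microRNA hairpins. In 3 of them, MIR4671, MIR4438 and MIR4476, the summit fell inside the hairpin. MIR4671, in intron 3 of SLC35F3, is shown because 2 motif matches fall in the hairpin itself. They are UAAUCU and AGAUUA, reverse complements on the 2 paired arms. Both strands were searched, so the 2 matches are not independent. Its peak was a weak one, with a fold enrichment of 4.60 and 55 fragments. The RefSeq hairpin is written as RNA.
MIR4671, chr1:234306467-234306539, plus strand: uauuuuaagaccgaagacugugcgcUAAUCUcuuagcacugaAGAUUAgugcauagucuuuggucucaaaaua
MIR4438 in intron 10 of SPAG16 had a fold enrichment of 10.8, and so did MIR4476 in intron 7 of PAX5, a B-cell and midbrain transcription factor. Neither hairpin held a motif.

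Later-intron peaks were close in strength to peaks elsewhere in introns and between genes, and stronger than peaks in exons or near a TSS. Their median fold enrichment over the local input was 6.34 (quartiles 4.33 and 10.9, highest 54.8), against 6.15 in first introns, 6.25 in intergenic DNA, 5.80 in exons beyond 5 kb and 5.42 within 5 kb of a TSS. The median peak had 56 fragments at its summit (range 15 to 452), a length of 438 bp and a −log10 q of 18.9. A fold enrichment of at least 10 was reached by 9634 later-intron peaks (28.2%, Wilson 95% interval 27.7 to 28.6%), where 26.3% of all peaks on chromosomes 1 to 22 reached it. The share was 27.2% in first introns, 28.0% in intergenic DNA, 23.8% in exons and 19.1% near a TSS. The median fold enrichment of later-intron peaks was above that of TSS peaks on 22 of 22 chromosomes, above that of first-intron peaks on 16 and above that of intergenic peaks on 13. The local input at the summit was a median of 5.00 for later-intron peaks and also for first-intron, intergenic and TSS peaks.

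**Figure D1:**
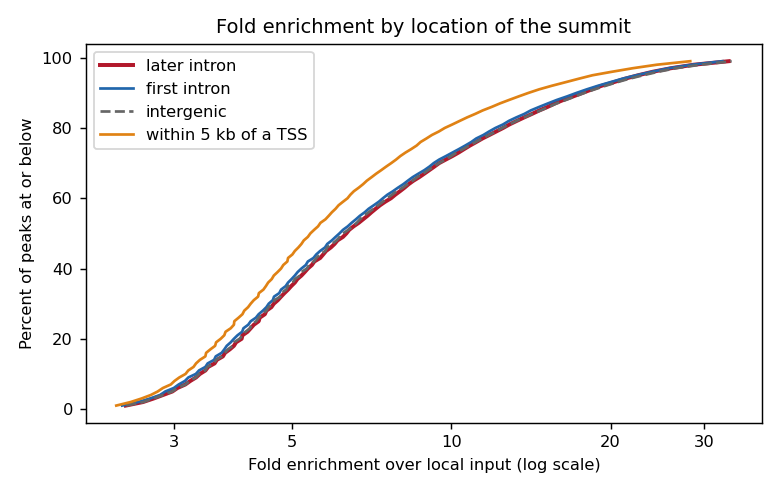
Share of peaks (vertical axis, percent) at or below a fold enrichment over local input (horizontal axis, log scale), for summits in later introns, first introns, intergenic DNA and within 5 kb of a TSS. The curves of later introns, first introns and intergenic DNA run close together, with medians of 6.34, 6.15 and 6.25, and the TSS curve lies to their left with a median of 5.42.

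The 5 kb limit did not fall at a step in strength. The 406 later-intron peaks from 5 to 5.5 kb from a TSS had a median fold enrichment of 5.90 (quartiles 4.17 and 10.1), and the 442 summits in later introns from 4.5 to 5 kb had a median of 5.68 (4.24 and 9.79). For 32495 later-intron peaks (94.98%), the whole peak and not only the summit lay in later-intron territory, meaning the bases that meet the same conditions as a summit.

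The strongest single later-intron peak lay in intron 4 of CDKAL1, which encodes a tRNA-modifying enzyme. It spans chr6:20606657-20607366 and had a fold enrichment of 54.8 with 370 fragments (333 to 410). PRKCB, a protein kinase C, followed with 53.6 and 362 fragments at chr16:24135346-24136584 in intron 9. A peak in intron 3 of AP1S3, a subunit of a clathrin adaptor, had a fold enrichment of 53.1 with 375 fragments, and its summit also lies in an intron of the overlapping gene ENSG00000286239. The others of the 10 strongest lay in ANO2, a calcium-activated chloride channel (52.6), AGBL1 (52.0), MACROD2 (51.8), the postsynaptic scaffold gene DLGAP1 (51.2), SETBP1 (50.6), the synaptic vesicle gene SYNPR (48.6) and TBC1D5 (48.0). Their summits held 342 to 395 fragments, far above the median of 56. The MACROD2 summit lay 107569 bp from the nearest protein-coding TSS, and the AGBL1 summit 488583 bp. Of the 10, CDKAL1, PRKCB, ANO2, AGBL1, DLGAP1 and SETBP1 had a local input of 3.99, next to the lowest value of 3.98 that the peak caller allows.

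Later introns carried fewer peaks per base than first introns. Their territory covers 688 Mb, which gave 49.7 peaks per Mb (exact Poisson 95% interval 49.2 to 50.3). First introns beyond 5 kb held 63.0 per Mb (61.9 to 64.2) over 183 Mb, windows within 5 kb of a TSS 88.3 per Mb and exons 33.4 per Mb. The ratio of later to first introns was 0.789 (0.772 to 0.806). These intervals cover counting error only. The ratio was below 1 on 21 of 22 chromosomes, chromosome 16 being the exception at 1.02. The order also held in the sum over single genes. In 677 genes with at least 50 kb of both kinds of intron, first introns held 59.7 and later introns 49.0 peaks per Mb. Gene by gene the picture was mixed, the first intron being denser in 374, the later introns in 288 and neither in 15.

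**Figure D2:**
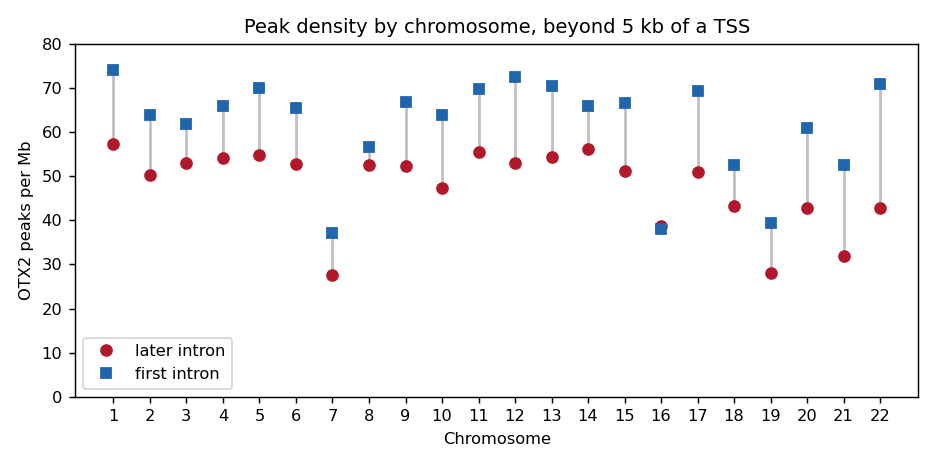
OTX2 peaks per Mb of intron territory (vertical axis) on each of chromosomes 1 to 22 (horizontal axis), as circles for later introns and squares for first introns, joined by a line. Circles lie below squares on 21 chromosomes, and later introns range from 27.5 on chromosome 7 to 57.3 on chromosome 1.

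The density of later-intron peaks varied between chromosomes from 27.5 per Mb on chromosome 7 to 57.3 on chromosome 1, with a median of 51.7. Chromosome 19 held 28.1, chromosome 21 held 32.0 and chromosome 16 held 38.7. First introns of chromosome 7 were sparse as well, with 37.1 per Mb. The local input of later-intron peaks had a median of 3.99 on chromosome 7, 4.00 on chromosomes 16 and 19, 5.00 on chromosome 21 and 8.42 on chromosome 8. The median over all later-intron peaks was 5.00. The part of the local input in the density was not tested.

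The gap between later and first introns narrowed with distance from the nearest TSS. From 5 to 10 kb later introns held 45.6 peaks per Mb (44.1 to 47.1) and first introns 67.9 (65.3 to 70.6), a ratio of 0.671. Later introns rose to 53.2 (52.0 to 54.5) from 50 to 100 kb, where first introns held 62.4, and from 100 to 250 kb the values were 49.6 and 51.7 with overlapping intervals. Beyond 250 kb the order turned, with 46.4 (44.6 to 48.3) in later introns and 33.2 (28.0 to 39.1) in first introns, the latter from 144 peaks. The median later-intron summit lay 42.7 kb from the nearest protein-coding TSS and 111 kb from the TSS of its host gene (quartiles 47.0 and 252 kb). Strength changed little along the way, the median fold enrichment being 6.25 from 5 to 10 kb and 6.57 beyond 250 kb.

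**Figure D3:**
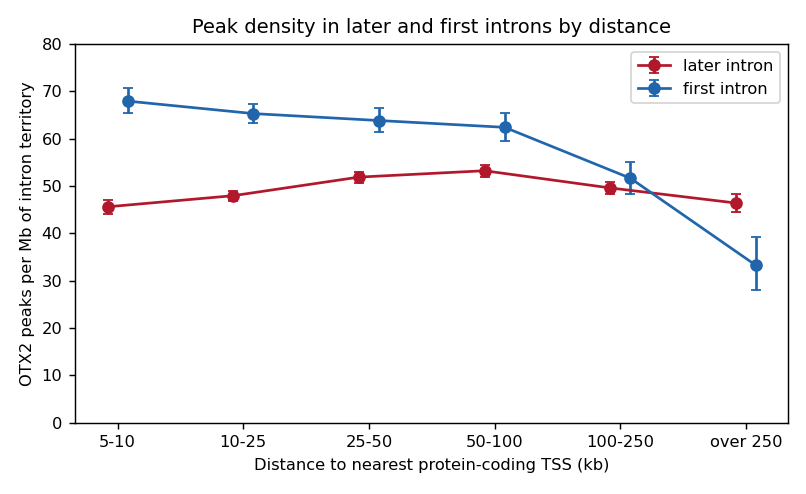
OTX2 peaks per Mb of territory (vertical axis) in bins of distance to the nearest protein-coding TSS (horizontal axis, kb), for later and first introns; bars are exact Poisson 95% intervals. First introns fall from 67.9 to 33.2 per Mb across the bins, while later introns stay between 45.6 and 53.2.

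Density fell with the number of the intron. Intron 2 held 56.3 peaks per Mb, intron 3 held 53.7, introns 4 and 5 held 51.6, introns 6 to 10 held 47.4, and introns 11 to 20 and those beyond held 44.2 each. Among introns of 10 to 50 kb the same groups held 56.9, 57.6, 52.4, 50.2, 46.6 and 45.8, so the fall was also seen at like length. Long introns were denser, with 41.2 per Mb in introns under 5 kb and 56.3 in those of 50 to 100 kb. A peak was found in 5.86% of the former and 86.9% of the latter. The last intron of a gene, at 49.1 per Mb, was close to the others at 49.9.

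Summits were sparse next to exons. Within 0.2 kb of an exon there were 31.0 later-intron summits per Mb (29.3 to 32.8), from 0.2 to 0.5 kb 44.6, and beyond 5 kb 53.6 (52.9 to 54.4). Across the intron as a whole they were spread evenly, with 32.0% in the first, 34.3% in the middle and 33.6% in the last part of 3 equal parts. Starts of lncRNA genes were the noncoding feature with a higher density nearby. Within 1 kb of such a start lay 362 later-intron summits, 63.0 per Mb against 49.6 elsewhere, a ratio of 1.27. Near noncoding transcripts of protein-coding genes the ratio was 0.929, and near other gene types 0.812.

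Later-intron peaks were close to other peaks. The median gap to the nearest OTX2 peak of any location was 4.47 kb, between 3.67 kb for first-intron and 4.96 kb for intergenic peaks, and 80.5% had another peak within 12.5 kb. The intron with the highest number was intron 3 of COL25A1, which encodes a neuronal membrane collagen, with 51 peaks in 247187 bp of territory, or 206 per Mb. Intron 7 of RAD51B, a homologous recombination gene, held 48, and intron 3 of MCC held 43 at 254 per Mb. Intron 4 of SLIT3, where the SLIT3-AS1 window lies, held 39 at 126 per Mb.

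A later-intron peak was present in 5916 (67.4%) of the 8771 protein-coding genes with at least 10 kb of later-intron territory, and the median gene had 1. Genes with at least 100 kb of territory held 65.0% of the pairs of a peak and a host gene in these 8771 genes, and 62.6% of the territory. The 936 genes with 10 or more held 55.7% of the 35098 pairs of a peak and a host gene. Since 759 peaks lay in later introns of more than 1 gene, pairs outnumber peaks. The share of genes with a peak rose from 41.1% at 10 to 25 kb of territory to 98.7% beyond 500 kb. Across the 8771 genes the Spearman correlation of territory and number of peaks was 0.681, a description of genes that share 1 library.

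DLG2, the gene of a postsynaptic scaffold protein, had 151 later-intron peaks, with fold enrichments from 2.40 to 39.6. It was followed by MACROD2, an ADP-ribose hydrolase gene, with 106 and the presynaptic neurexin NRXN3 with 103. PTPRD, a receptor phosphatase of synapses, had 96. NCKAP5 had 87 and FHIT, a gene in a common fragile site, had 82. The glypican genes GPC6 and GPC5, whose products are heparan sulfate proteoglycans of the cell surface, had 80 and 78. LRBA had 74 and the SLIT receptor gene ROBO1 had 71. Per Mb the order differed. MACROD2 held 52.8 per Mb and PTPRD 42.6, near the mean of 49.7, whereas NCKAP5 held 103, LRBA 111 and GPC6 93.4. The peaks of GPC5 and GPC6 had a median local input of 8.83 and 8.91, above the 5.00 of all later-intron peaks, and its part in their number was not tested.

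The densest of the genes with at least 10 later-intron peaks were short by comparison. PSMD14, a deubiquitinating subunit of the proteasome, had 30 peaks in 93.9 kb, or 320 per Mb (exact Poisson 95% interval 216 to 456). Its peaks were mostly weak, with a median fold enrichment of 4.55, and 5 of 30 (16.7%) reached 10. NT5C2, a purine nucleotidase, had 21 peaks at 295 per Mb (183 to 451) with a median of 5.66. DUSP10, a phosphatase of p38 and JNK kinases, had 10 peaks at 294 per Mb (141 to 540), with a median of 7.94 and a highest value of 31.5. BCL2L1, which encodes the anti-apoptotic protein BCL-XL, had 15 peaks at 291 per Mb (163 to 481), all in 1 later intron, and the strongest reached 44.0. GRB2, an adaptor between receptor tyrosine kinases and RAS, had 17 peaks at 275 per Mb (160 to 440) with a highest value of 27.2. These genes were chosen for their density, so their values are a description. The median local input of the peaks was 6.11 in PSMD14, 5.48 in NT5C2, 6.79 in GRB2 and 4.59 in BCL2L1. It was highest in DUSP10 among these genes, and the median of all later-intron peaks was 5.00. The part of the local input in the density of these genes was not tested.

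**Figure D4:**
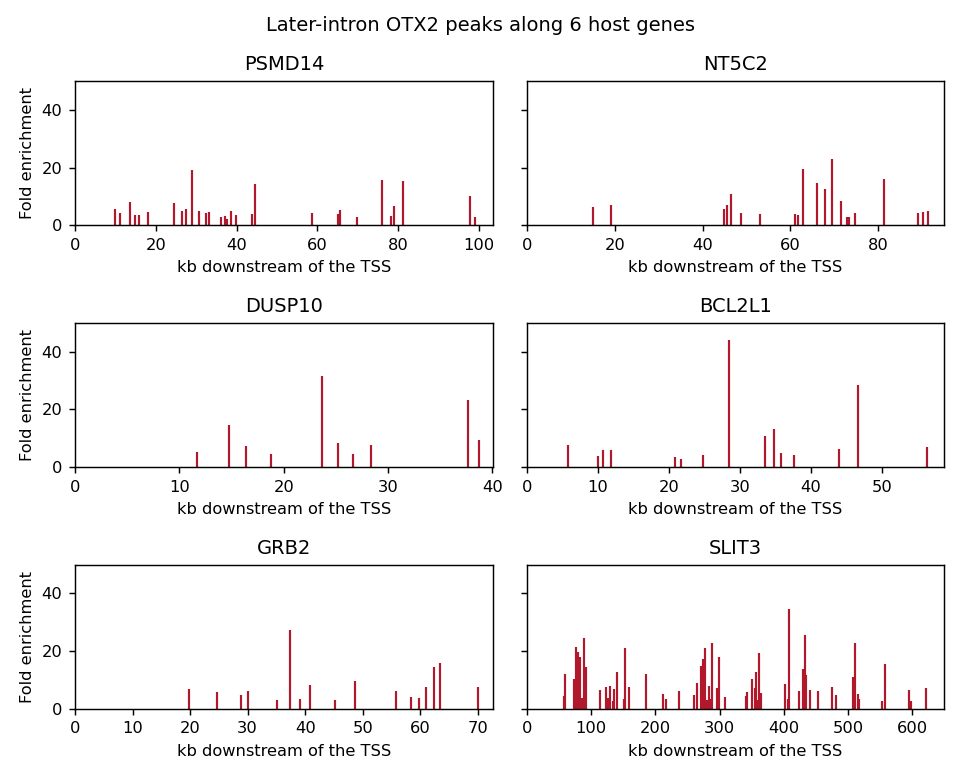
Fold enrichment (vertical axis) of each later-intron OTX2 peak against the distance of its summit downstream of the TSS of the host gene (horizontal axis, kb) in PSMD14, NT5C2, DUSP10, BCL2L1, GRB2 and SLIT3. A few tall peaks stand among many low ones, for example 44.0 in BCL2L1 and 34.7 in SLIT3, where 65 peaks form several groups.

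Some long genes had none. PTPRN2, a phosphatase-like protein of dense-core vesicles, had 0 later-intron peaks in 936 kb, for which a count of 0 allows up to 3.20 per Mb (3 counts, counting error only). CDH4, the gene of R-cadherin, had 0 in 657 kb, ABCA13 had 0 in 412 kb, the sodium leak channel gene NALCN 0 in 324 kb and the metalloprotease gene ADAM12 0 in 311 kb. The limits for these were 4.57, 7.28, 9.26 and 9.66 per Mb, all under the mean of 49.7. The genes were chosen for their length and for holding no peak, so the limits are a description. In PTPRN2, CDH4, NALCN and ADAM12 no peak of any kind lay in the gene. PTPRN2 and ABCA13 lie on chromosome 7, whose later introns held 27.5 peaks per Mb. The 20 peaks nearest to each gene had a median local input of 3.99 for PTPRN2, 4.00 for CDH4, 3.99 for ABCA13, 6.10 for NALCN and 4.45 for ADAM12.

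**Figure D5:**
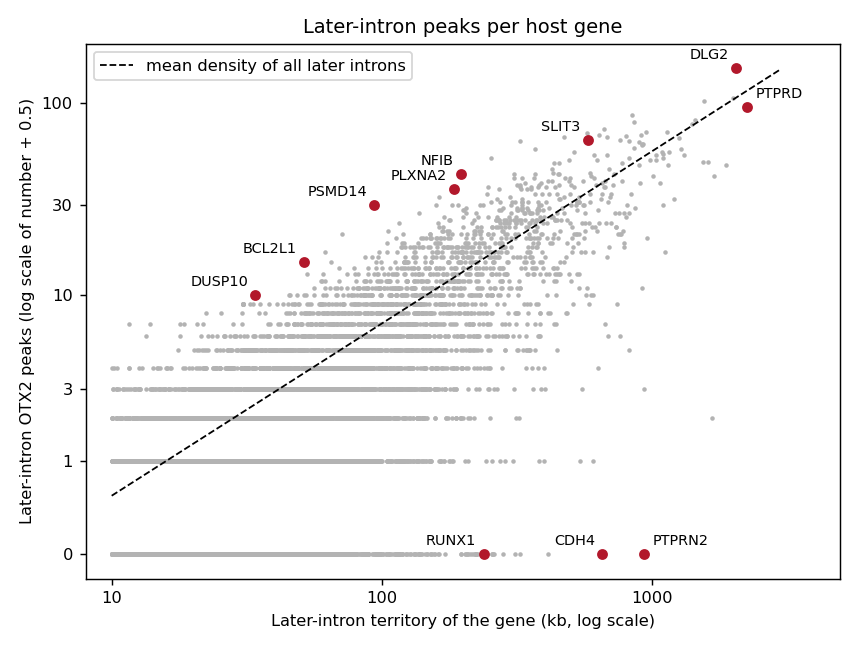
Later-intron OTX2 peaks (vertical axis, log scale of the number plus 0.5) against later-intron territory (horizontal axis, kb, log scale) for 8771 host genes, with named genes in red and the mean of 49.7 per Mb as a dashed line. PSMD14, BCL2L1 and DUSP10 lie far above the line, PTPRD near it, and CDH4, PTPRN2 and RUNX1 at 0.

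Shares of genes with a peak in lists of neural and other genes were read against the 67.4% of all 8771 genes with at least 10 kb of territory. Pooled densities were read against the mean of 49.8 pairs per Mb over all 13387 genes with any later-intron territory. In each list, too, the share counts genes with at least 10 kb and the pooled density counts all with territory. The listed genes have longer introns than the median gene with 37.1 kb of territory, and the share with a peak rises with territory, so the density is given beside it. Density varied with territory too, being 40.4 per Mb at 10 to 25 kb, 55.3 at 250 to 500 kb and 45.2 beyond 500 kb. The lists were not matched to other genes by territory, so a difference from all genes includes that of length. Listed genes without a peak were picked for holding none, and their limit, set at 3 counts, is a description. This limit lies below the mean of 49.8 only for CDH4, PTPRS, NRXN2, CACNA1B, RUNX1, ANK1, CFTR and CYP2C19 among those named. It is lower than the upper end of the exact Poisson interval used for other densities. For PTPRS, NRXN2 and ANK1 it was 43.7, 45.1 and 43.2 per Mb, close to the mean, so these genes are not read as below it. Leaving out the 3 genes with most peaks lowers the density of a list by construction. Among axon guidance receptors, 23 of 29 had a later-intron peak, at 57.1 per Mb pooled and a median fold enrichment of 7.21. The median receptor gene held 37.2 per Mb. The median of all genes was 35.5, but their median territory was 37.1 kb against 129 kb for the receptors, so the 2 are not alike. Without the 3 genes with most peaks the list pooled to 48.0 (41.9 to 54.8). PLXNA2, a semaphorin receptor, had 36 at 195 per Mb with a median fold enrichment of 9.55. Of its 36 peaks, 16 (44.4%, against 28.2% of all later-intron peaks) reached 10. The median local input of the PLXNA2 peaks was 7.98, above the 5.00 of all later-intron peaks, and its part in their number was not tested. ROBO1 had 71 and ROBO2 30. EPHA2, UNC5B and EPHB4 had none, but their territory is short and a count of 0 there allows 131, 180 and 182 per Mb. Among axon guidance ligands, 20 of 23 had a peak, at 60.2 per Mb pooled. The SLIT genes led, with 65 in SLIT3, 38 in SLIT2 and 16 in SLIT1, at 112, 117 and 101 per Mb. They held 119 of the list's 186 peaks, and the other ligands pooled to 36.1 per Mb (28.0 to 45.9). SEMA4F, EFNB2 and DRAXIN had none, although EFNB2 had 2 peaks in its first intron.

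Of the synaptic and neuronal adhesion molecules, 42 of 47 held a peak. Pooled, they held 39.1 per Mb over a median territory of 458 kb, below all genes. The median gene of the list held 40.6 per Mb. The 35.5 of all genes is no like comparison, since their median territory is 37.1 kb and many of them hold no peak. This list includes PTPRD, NRXN3 and TENM2, a teneurin gene with 71, but also CDH4, PTPRS and NRXN2 with none. Glutamate and GABA receptor genes were at the mean, 30 of 33 and 49.7 per Mb, with 34 in GRIK2 and 31 in GRIA1. GABRA5, GRIN1 and GABBR1 had none. Calcium and potassium channel genes had 25 of 27 and 57.7 per Mb, or 48.3 without the 3 genes with most peaks, with 69 in CACNA2D3, 41 in KCNB2 and 36 in CACNB2, and none in CACNA1B and KCNIP1. KCNIP1 had 22 peaks in its first intron.

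Neural transcription factors with long introns were the densest of the lists given here, with 50 of 52 holding a peak at 66.5 per Mb, and the median gene held 62.2. Without the 3 genes with most peaks they held 60.0 (54.9 to 65.5). AUTS2, a gene of neuronal development on chromosome 7, had 64 peaks at 77.8 per Mb. Of these, 26 (40.6%, against 28.2% of all later-intron peaks) reached a fold enrichment of 10. Their median local input was 3.99, next to the lowest value of 3.98. The fold enrichment is a ratio to the local input, and the part of the input in this share was not tested. Later-intron peaks of chromosome 7 had a median fold enrichment of 7.13, against 6.34 on all 22 chromosomes. The nuclear factor I genes NFIB and NFIA, which act in cerebellar granule cell and glial differentiation, had 43 at 219 per Mb and 36 at 110 per Mb, though their median fold enrichments were 5.39 and 5.22. RUNX1 had none in its later introns, a limit of 12.6 per Mb, and neither had CBFA2T3. Chromatin regulators mutated in medulloblastoma had 17 of 19 and 62.4 per Mb, or 52.3 without the 3 genes with most peaks, with 30 in ARID1B, 16 in KDM4C and 15 in CHD7, and none in EP300 and SMARCA4.

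Of the striated muscle genes, 17 of 27 held a peak, at 57.8 per Mb pooled and 39.0 in the median gene, led by SGCD with 40, PDLIM5 with 30 and the ryanodine receptor gene RYR2 with 21. ANK1 and MYBPC2 had none. Those 3 genes held 91 of the list's 170 peaks, and the others pooled to 44.0 per Mb. The median fold enrichment of this list was 5.53. Digestive and liver genes were the sparsest, with 15 of 25 and 28.5 per Mb and a median fold enrichment of 5.39. CUBN had 13, F5 8 and ABCC2 4, and CFTR, CYP2C19 and SLCO1B3 had none.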

How the data were processed

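OTX2 ChIP-Seq was performed by the authors on D283 tumorspheres. Per the labels and the file header, reads were mapped to GRCh38 with Bowtie2 2.2.4, and peaks were called with MACS2 2.1.0.20140616 against input (q cutoff 0.05, 1 fragment kept per position). The ChIP library held 84980793 fragments and the input 32292980 before duplicate removal. The deposited pileup is a signal scaled to the smaller library, the deposited fold enrichment is the ratio of pileup plus 1 to local input plus 1, and the deposited −log10 values are of q (those of p were not used). Each fragment adds 0.735 to the pileup, so fragments at a summit were read back as whole numbers (largest offset 0.00501). The study states that blacklisted regions were masked.

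Introns, exons and TSS were taken from a copy of GENCODE release 44 lifted to another genome build, at the original GRCh38 position it records for each exon. No coordinate was converted. Transcripts absent from that copy and exons without a recorded position are not covered. Shares have Wilson and densities exact Poisson 95% intervals, except for genes without a peak, whose upper limit is 3 counts. Peaks are not replicates, so no p-value is given. Genes named are the 10 strongest peaks' hosts, the 10 with most peaks, the 5 densest with at least 10 peaks, the 5 longest without any, and for each list the 3 with most peaks and up to 3 of the longest without. Some items that these rules cover are left out here. Other introns, microRNAs and further peaks were named after their values were seen. Members, lists and rules were chosen with earlier results of these data known. Classification was tested on simulated summits. The genome at hand was GRCh37, so motifs at all summits were not analysed here; RefSeq windows (GRCh38.p14) replaced them, chosen after seeing the data. Python 3.11.15, numpy 2.4.6, pandas 2.3.3, scipy 1.17.1 and matplotlib 3.10.9 were used.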

Additional observations from a re-analysis of the deposited data

Results flagged for a closer look

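Chromosome X was outside the autosomal rule but held 821 peaks that meet its other conditions. They lay at 28.5 per Mb, 57.4% of the autosomal density of later introns, and their fold enrichment had a median of 6.98 over a local input of 3.99 (median). First introns of chromosome X held 27.9 per Mb, a ratio of 1.02. No cause of the lower density was tested.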

How the results depend on the processing

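The 6 results on number, share, density, density ratio, fold enrichment and host genes were recomputed under 10 alternatives, giving 60 values. Of these, 32 stayed within the interval of the reported value, or within 1.5 times the reported number, and 28 moved. The density ratio of later to first introns was below 1 under all 10, being 0.814 when folds under 5 were dropped, 0.813 with 10 kb from the TSS, 0.766 with the whole peak in the territory, 0.765 with gene record TSS and 0.762 with 2 kb. Without folds under 5, by construction, 22189 peaks were left, 26.4% of peaks, at 32.2 per Mb, with a median fold enrichment of 9.02 and 57.5% of host genes. With a −log10 q of at least 5 the share was 25.8%, the density 44.3 per Mb, the median fold enrichment 6.98 and host genes 64.9%. The share was 28.1% with canonical TSS only, 28.2% with gene record TSS, 27.5% with 2 kb, 22.9% with 10 kb (host genes 69.3%) and 24.3% with the whole peak in the territory (47.2 per Mb, fold enrichment 6.25, host genes 65.6%). The density was 51.3 per Mb without chromosome 7. Alternatives chosen after seeing the data were leaving out peaks of high local input (47.5 per Mb), leaving out chromosomes 7, 16, 19 and 21, which were picked for their low density (52.3 per Mb, share 25.8%, host genes 70.4%), those of the motif search, and leaving out the 3 leading genes of a list. The share of RefSeq windows with a motif within 50 bp of the summit was 41.0%, and 17.9% for TAATCC alone. The motif search over all summits was not run. Where no construction is named, the cause was not tested. The single input library limits how precisely a fold enrichment is known, most at the floor of the local input.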
